A study of Mus musculus with 186 samples.

Results

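The genes described here encode the translocases of the mitochondrial membranes. They were taken by name: symbols that begin with Timm (translocase of the inner membrane) or Tomm (translocase of the outer membrane) followed by a digit, leaving out pseudogene and opposite-strand entries. The rule found 25 genes among 55421 gene entries, of which 15 were Timm and 10 were Tomm genes. Of these, 24 passed the filter on low values and were tested, among 11680 tested genes. Tomm20l did not pass.

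Their RNA was measured in single inner cells of CD-1 mouse embryos. Inner cells were freed by immunosurgery, which lyses the outer layer of the blastocyst. In the culture arms, E2.75 morulae spent 16 or 24 hours in KSOM medium. It held either 10 µM of LY294002, called LY here, which blocks the lipid kinase PI3K, or the vehicle DMSO. The question of the series was what PI3K signalling does while inner cells choose between epiblast, the source of the embryo proper, and primitive endoderm, which lines the yolk sac. The groups were 16h LY (31 cells), 16h DMSO (31 cells), 24h LY (24 cells) and 24h DMSO (28 cells), each collected on 3 dates, and fresh E3.25 (19 cells), E3.75 (22 cells) and E4.0 (14 cells) embryos, each collected on 2 dates. The labels name no mutation or transgene. Each experiment, meaning the cells of 1 group and 1 date, pooled several litters and counted as 1 replicate. LY and DMSO cells of the same culture time came from the same dates, and all 16h dates were later than those of the other groups.

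Values are TPM, which scales transcript abundance to a fixed total and divides by transcript length. An experiment's level is log2(TPM + 1) averaged over its cells, and every difference below is on that scale. Such a mean cannot tell fewer cells with a transcript apart from less transcript per cell. TPM keeps no sequencing depth. Cells had a TPM of 1 or more for 3806 to 10220 genes, and this number averaged 5439 ± 918 with LY against 6454 ± 648 with DMSO at 24 hours, and 6832 ± 1306 with LY against 8084 ± 1655 with DMSO at 16 hours (SD, n = 3 experiments each). The experiments of the arms overlapped at both times. Experiment 1 of 16h DMSO held only 3 cells. The 9 epiblast markers checked were present in all groups, with an experiment mean of 2.42 to 5.50. The 13 trophectoderm (outer layer) markers had means of 0.853 to 3.88, the highest in that experiment of 3 cells.

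Nearly all mitochondrial proteins are made in the cytosol and imported. The outer membrane complex TOM receives them through the receptors TOM20, TOM22 and TOM70 and passes them through the channel TOM40, which small subunits stabilise. Proteins with a cleavable presequence then cross the inner membrane through TIM23, pulled by a motor that TIM44 tethers, while metabolite carriers are escorted through the intermembrane space by hexamers of small TIM chaperones and inserted by TIM22. The early embryo inherits its mitochondria from the egg and copies little mitochondrial DNA before implantation.

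Most of the members were among the more abundant transcripts. The median member had a level of 5.77, against 1.70 for the median tested gene, and reached a TPM of 1 in 92.3% of cells, against 52.1%. In the TOM complex the small subunit Tomm5 averaged 644 TPM over the 7 groups, the receptor Tomm20 557 TPM, the receptor Tomm22 267 TPM, the small subunit Tomm6 196 TPM and the channel Tomm40 118 TPM. Tomm20, Tomm22, Tomm6 and Tomm40 were at a TPM of 1 or more in each of the 169 cells. The receptor for carrier precursors, Tomm70a, was far lower at 15.2 TPM. Of the small TIM chaperones, Timm13 averaged 463 TPM and Timm9 40.2 TPM. In the presequence complex the channel subunit Timm23 averaged 634 TPM, the receptor Timm50 171 TPM, the motor tether Timm44 92.3 TPM and the coupling subunit Timm21 5.32 TPM. The carrier inserter Timm22 averaged 53.7 TPM and its partner Timm29 4.07 TPM. Tomm34, a cytosolic co-chaperone, averaged 10.6 TPM, and the channel paralogue Tomm40l 2.14 TPM. Tomm20l reached a TPM of 1 in 3 of 169 cells. Because these libraries start at the 3′ end of transcripts while TPM divides by the whole length, the order of genes by TPM is approximate.

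The members were not equally steady between dates. Tomm6 and Tomm20 had the smallest standard deviations between experiments of a group, 0.40 and 0.44. Timm8b (1.67), Timm17a (1.42), Timm10 (1.39), Tomm7 (1.39) and Tomm5 (1.32) had the largest, against a median of 0.70 for members and 0.68 for all tested genes. These 5 genes were low together in 2 experiments. In experiment 2 of E3.25 they stood at 2.91, 3.62, 3.66, 2.38 and 6.06, against 6.47, 6.43, 8.08, 6.13 and 9.61 in experiment 1 of that stage. In experiment 1 of 24h LY they stood at 2.64, 1.04, 0.98, 2.38 and 4.95. A difference of one of these genes that involves E3.25 or 24h LY is given below also without that experiment or by date.

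**Figure D1:**
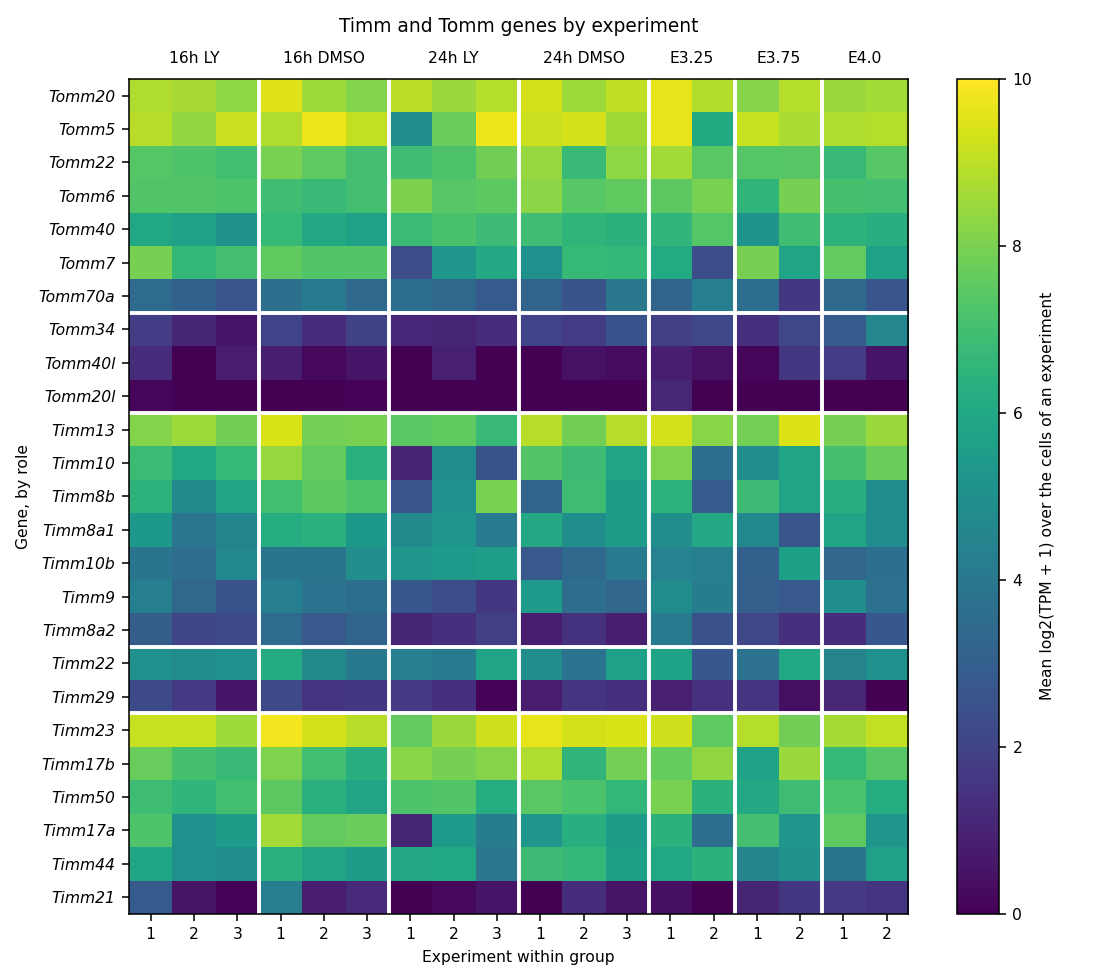
Level of each of the 25 genes (down the page, by role and then by level) in each of the 18 experiments (across, in 7 groups). Colour is the mean log2(TPM + 1) over the cells of an experiment. Timm23, Tomm20 and Timm13 are high throughout, and Tomm20l is at or near 0. Tomm5 is lower in experiment 1 of 24h LY and experiment 2 of E3.25 than elsewhere, and both of these experiments hold several dark fields.

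Some of the members share sequence with other entries of the table, so that the split of reads between them is uncertain. Against the GENCODE vM21 transcripts (mm10), Timm8a1 on chromosome X had 1 full copy of its coding sequence in the processed pseudogene Gm9797 (chromosome 10, 11609223 to 11609835, + strand), identical at 291 of 291 bases. The table gives Timm8a1 a mean of 69.1 TPM over cells and Gm9797 80.9 TPM. Tomm20 and the processed pseudogene Gm14494 were 99.5% identical over the coding sequence, with 529.6 TPM for Tomm20 and 137 TPM for the copy. Timm23 has 3 copies of 100% identity, of which Gm10233 had 53.3 TPM and Gm10171 28 TPM. The related gene Timm8a2 on chromosome 14 matched Timm8a1 at 80.9% of 246 aligned bases, and the channel paralogues Timm17a and Timm17b matched at 73.1% of 401. The stretches below, 30 bases each of the coding strand from 5′ to 3′, show what the authors' read assignment had to tell apart, with capitals at the bases that differ within a pair. The first pair covers bases 131 to 160 of the Timm8a1 coding sequence, the second bases 138 to 167, and the last bases 189 to 218 of Timm17a.
Timm8a1: gggagaagtgcatggataagcctgggccta
Gm9797: gggagaagtgcatggataagcctgggccta
Timm8a1: gtgcatggaTaagccTgggccTaAgTtgga
Timm8a2: gtgcatggaCaagccCgggccCaGgCtgga
Timm17a: aggTagctttgcagtTtggggaggActgtt
Timm17b: aggAagctttgcagtGtggggaggTctgtt
The first pair has no differing base and both pairs of true paralogues have several. With expressed copies this close, the values of Timm8a1, Tomm20 and Timm23 are uncertain. Timm10 (chromosome 2, 84826997 to 84830213, + strand), Timm13 (chromosome 10, 80899450 to 80900969, - strand) and Timm9, on which the 24-hour culture results turn, had no such copy. Timm9 (chromosome 12, 71123173 to 71136684, - strand) overlaps the end of Tomm20l on the opposite strand, and no source used here says whether counting used strand. Timm10b (chromosome 7, 105640056 to 105643637, + strand) overlaps a read-through locus, Gm45799, that had 4.01 TPM.

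After 24 hours of culture, the 4 members with the smallest p between LY and DMSO were small TIM chaperones, of which Timm10, Timm9 and Timm13 lay below DMSO and Timm10b above it. Timm10, which with Timm9 forms the hexamer that carries metabolite carriers to TIM22, had a level of 0.98, 4.81 and 2.60 on dates 1, 2 and 3 with LY, against 7.31, 6.87 and 5.83 with DMSO. Every LY value lay below every DMSO value, and the difference of -3.87 (SE 0.95) was the lowest of all 11680 tested genes. It came with cells in which no Timm10 was recorded: 12 of 24 LY cells were at 0, against 1 of 28 DMSO cells. By date, 6 of 7, 3 of 12 and 3 of 5 LY cells were at 0, against 0 of 6, 0 of 11 and 1 of 11 DMSO cells. A TPM of 1 or more was reached by 50% of LY cells (95% exact Clopper-Pearson interval 29.1% to 70.9%, counting error only), against 92.9% of DMSO cells (76.5% to 99.1%).

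Timm9, the partner in that hexamer, stood at 2.71, 2.41 and 1.6 with LY, against 5.38, 3.59 and 3.31 with DMSO, a difference of -1.86 (SE 0.65), and -0.995 without the cells of fewer than 5000 genes. Its LY and DMSO levels did not overlap either. As mean TPM per experiment they did, at 68.23, 12.02 and 10.2 TPM with LY, against 97.75, 33.5 and 34.84 TPM with DMSO. Timm10b, a small TIM found at the TIM22 complex, lay on the other side. It stood at 5.26, 5.38 and 5.56 with LY, against 2.80, 3.42 and 4.11 with DMSO. The groups did not overlap, and the difference of 1.96 (SE 0.65) was the second highest of all tested genes. Timm13, which pairs with Timm8a1 in the other small TIM hexamer, was at 7.44, 7.54 and 6.8 with LY, against 8.92, 7.88 and 8.91 with DMSO, without overlap (difference -1.31, SE 0.58). As mean TPM per experiment the Timm13 groups overlapped, at 492.5, 305.6 and 311.4 TPM with LY, against 514.4, 302.3 and 701.5 TPM with DMSO, and the log2 of that mean differed by -0.41. Timm8b differed by 0.03 (SE 1.10), and by 1.32 without date 1 of LY and -1.35 without date 3 of LY. Timm8a2 differed by 0.39 (SE 0.59).

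None of these differences passed limma's test after Benjamini-Hochberg adjustment over all genes. The adjusted p was 0.899 for Timm10, Timm10b, Timm9 and Timm13, with unadjusted p of 0.000559, 0.00664, 0.0098 and 0.0338. No gene of the whole table passed in this comparison (0 of 11680 tested genes, 0.0%). At an unadjusted p under 0.05 there were 5 of 24 members, these 4 and Timm17a, or 20.8%, against 5.27% of all tested genes. LY values lay below DMSO values without overlap for 5 of 24 members (Timm10, Timm13, Timm9, Timm23 and Tomm34; 20.8%), against 8.64% of tested genes, and above them for Timm10b alone (4.17%), against 2.26%. As mean TPM per experiment, Timm13, Timm9, Timm23 and Tomm34 overlapped between the arms, and Timm10 and Timm10b did not. On all 3 dates LY was lower for 9 members (37.5%), against 22.4% of tested genes, and higher for 1 (4.17%), against 6.33%.

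**Figure D2:**
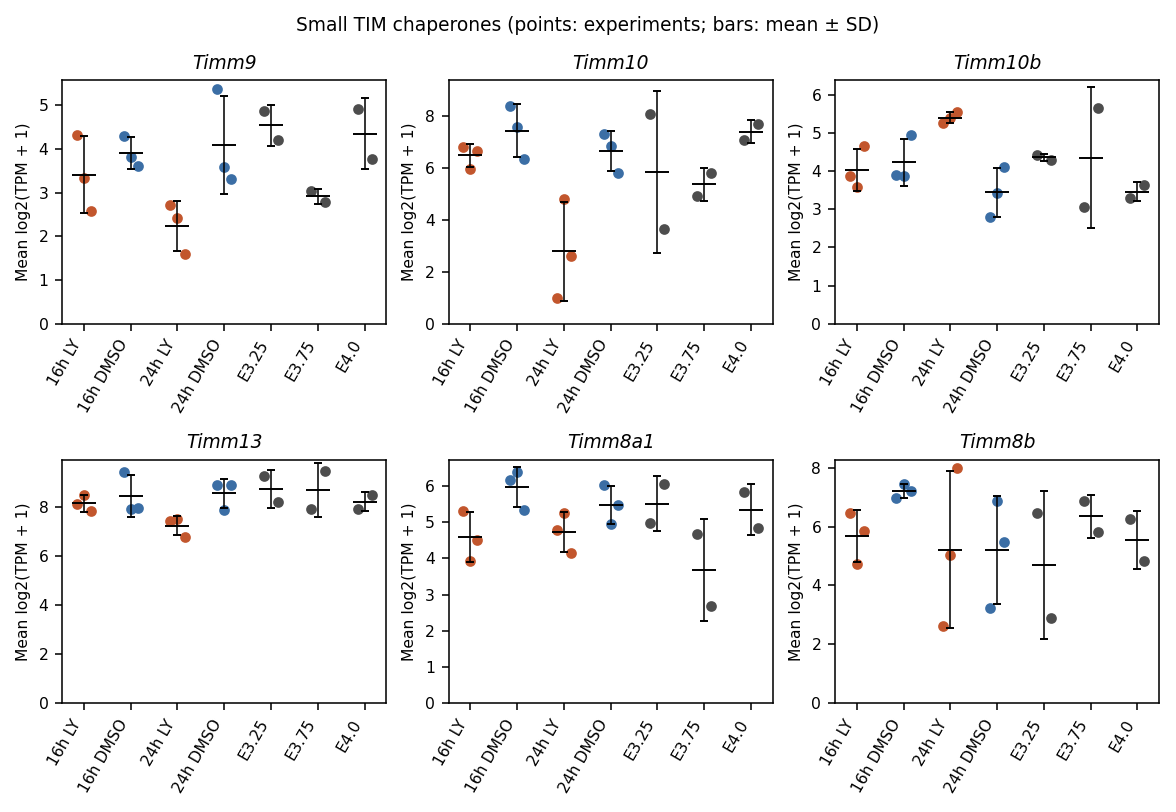
Level of 6 small TIM genes in each group. Points are experiments (orange LY, blue DMSO, grey fresh), the bar and whiskers are the mean ± SD over 3 (culture) or 2 (fresh) experiments, and the vertical axis is mean log2(TPM + 1). At 24 hours the LY points of Timm9, Timm10 and Timm13 lie below all DMSO points and those of Timm10b above them.

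The number of genes detected per cell was lower in 24h LY, and across the 169 cells it correlated within experiments with Timm10 (Pearson's r = 0.411) more than with Timm9 (0.218), Timm10b (0.081) or Timm13 (-0.084). With the number of genes as a covariate the Timm10 difference was -3.29, and without the cells of fewer than 5000 genes it was -3.51. Leaving out date 1 of LY, where 6 of 7 cells were at 0, gave -2.96. For Timm10b these alternatives gave 1.86, 2.46 and 2.03. All 3 lists of cell type markers had lower group means with LY, and their experiment ranges overlapped between the arms. The median of all tested genes was also below 0 (-0.20). The 10 primitive endoderm markers had experiment means of 0.455 to 0.983 with LY and 0.805 to 1.46 with DMSO (group means 0.696 and 1.18), and the 9 epiblast markers 2.42 to 3.57 with LY and 2.94 to 3.91 with DMSO (group means 2.95 and 3.49). The 13 trophectoderm markers had 1.3 to 1.63 with LY and 1.29 to 1.94 with DMSO (group means 1.48 and 1.65). No marker was at 0 in all cells of either group, and their part in the result was not tested.

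In the other roles Timm17a and Tomm5 had the largest differences at 24 hours, and both were much smaller without date 1 of LY. Timm17a, one of 2 alternative channel subunits of TIM23, was at 1.04, 5.40 and 4.19 with LY, against 5.26, 6.25 and 5.47 with DMSO. The difference was -2.12 (SE 0.97, adjusted p = 0.899), and the groups overlapped. It was -0.86 without date 1 of LY. Its paralogue Timm17b was at 8.22, 7.94 and 8.17 with LY, against 8.82, 6.54 and 7.93 with DMSO, a difference of 0.35 (SE 0.70). Timm23, the main channel subunit, had LY minus DMSO differences of -2.06, -0.87 and -0.16 on the 3 dates. The TOM complex members had differences of -1.58 (Tomm5) to 0.29 (Tomm40), with a median of -0.19, which is close to the -0.20 of all tested genes. The Tomm5 difference was -0.32 without date 1 of LY. Tomm7 differed by -1.56, with LY minus DMSO of -2.65, -1.42 and -0.62 on dates 1, 2 and 3. Over all 24 members 17 differences were negative and the median was -0.27, while 7854 of 11680 tested genes were negative.

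After 16 hours the members nearest to the threshold were others. Timm8a1 had levels of 5.33, 3.94 and 4.52 with LY, against 6.18, 6.38 and 5.34 with DMSO, a difference of -1.37 (SE 0.65, adjusted p = 0.854). The highest LY value lay just under the lowest DMSO value. Timm17a was at 7.23, 5.08 and 5.54 with LY, against 8.62, 7.59 and 7.72 with DMSO, and Timm8b at 6.47, 4.72 and 5.85, against 6.99, 7.46 and 7.20. Neither pair of groups overlapped, with differences of -2.03 (SE 0.97, adjusted p = 0.854) and -1.54 (SE 1.10, adjusted p = 0.855). Timm10 overlapped at this time, with 6.82, 5.99 and 6.68 with LY, against 8.42, 7.58 and 6.37 with DMSO.

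Here 20 of 24 differences were negative, with a median of -0.38, but 8922 of 11680 tested genes were negative too, with a median of -0.33. No member and no other gene passed (0 of 11680, 0.0%), and 2 members (8.33%) had an unadjusted p under 0.05, against 5.49% of tested genes. LY values lay below DMSO values without overlap for the 3 members just named (12.5%), against 8.84%, and above them for Tomm6 (4.17%), against 1.35%. Tomm6 stood at 7.28, 7.27 and 7.24 with LY, against 6.95, 6.8 and 7.00 with DMSO, a small difference of 0.35 (SE 0.51, adjusted p = 0.912). On all 3 dates LY was lower for 12 members (50%), against 35.7% of tested genes, and higher for 1 (4.17%), against 5.34%. The trophectoderm markers had a lower group mean with LY, at 1.39 to 2.00 (Elf5 and Fgfbp1 at 0 in all cells), against 1.69 to 3.88 with DMSO (Elf5 at 0). The 3.88 was that of the DMSO experiment of 3 cells. Group means were also lower for primitive endoderm markers, at 0.569 to 0.891 with LY (Foxa2 at 0) and 0.818 to 1.55 with DMSO. So it was for epiblast markers, at 2.46 to 3.46 with LY and 2.91 to 4.07 with DMSO. All 3 ranges overlapped between the arms. The part of these markers was not tested. Summed with Gm9797, Timm8a1 differed by -0.99. Without the DMSO experiment of 3 cells the differences were -1.26 for Timm8a1 and -1.70 for Timm17a.

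**Figure D3:**
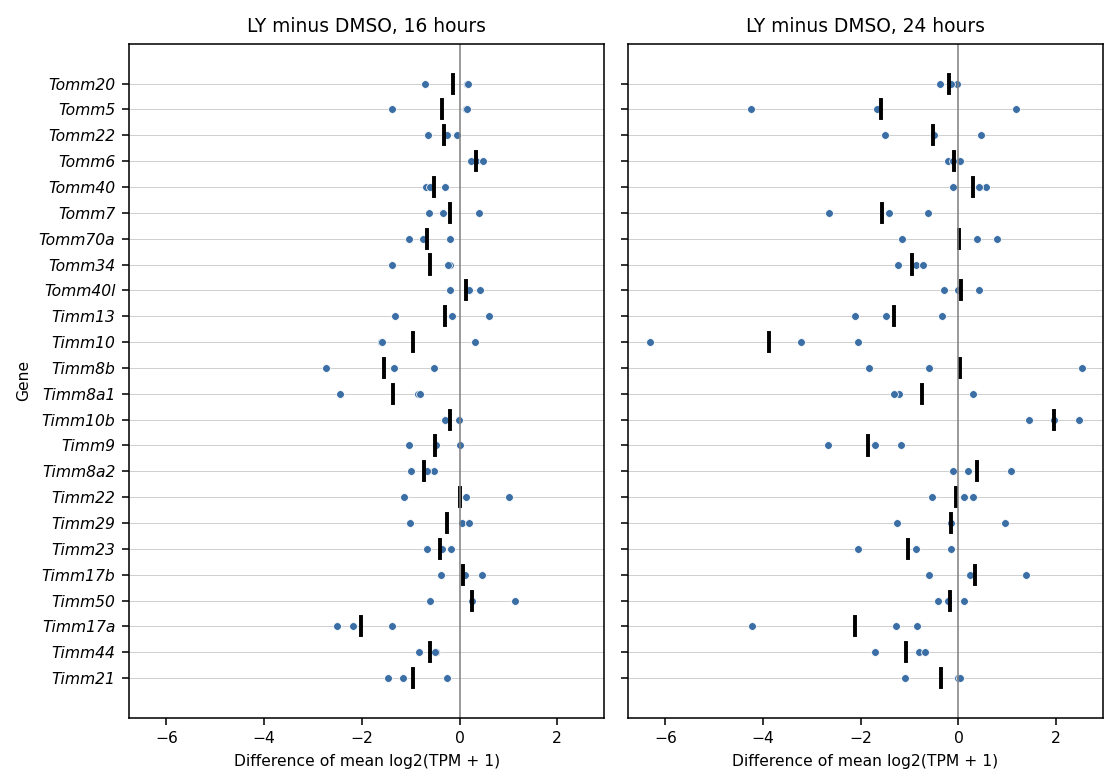
LY minus DMSO for each of the 24 tested members at 16 hours (left) and 24 hours (right), as the difference of mean log2(TPM + 1). Points are the 3 dates and the black bar is their mean. At 24 hours Timm10 lies furthest left, at -6.33, -3.23 and -2.06, and Timm10b is the one member with all 3 points above 0.

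The LY differences at the 2 times were compared in the same model. No member passed and no gene did (0 of 11680, 0.0%), and 2 of 24 members (8.33%) had an unadjusted p under 0.05, against 2.49% of tested genes. These were Timm10b, with a difference at 24 hours minus that at 16 hours of 2.16 (SE 0.92, unadjusted p = 0.0288), and Timm10, with -2.91 (SE 1.35, unadjusted p = 0.0422). Timm9 followed with -1.36 (SE 0.92, unadjusted p = 0.158). The adjusted p was 1 for all of them. Without date 1 of 24h LY the Timm10 value was -2.01, and without the 16h DMSO experiment of 3 cells it was -3.39 and that of Timm10b 2.33. The 7 small TIM genes had 7 negative differences at 16 hours, with a median of -0.73. At that time 8922 of 11680 tested genes were negative, with a median of -0.33, or -0.05 without the DMSO experiment of 3 cells. At 24 hours the small TIM genes had 4 negative and 3 positive differences, with a median of -0.75. Of all tested genes 7854 were then negative, with a median of -0.20.

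Across the fresh stages the question is how the import genes differ between early, middle and late inner cells. Tomm34, which binds precursor proteins and HSP90 in the cytosol, had the widest range of means over all 7 groups, relative to its spread between dates. That range ran from 1.13 in 24h LY to 3.76 at E4.0, so it is not one of fresh stages alone. Tomm34 is given here by fresh stage. It was at 1.90 and 2.16 at E3.25, 1.40 and 2.12 at E3.75, and 2.91 and 4.61 at E4.0. The share of cells at a TPM of 1 or more was 47.4% at E3.25, then 54.5% at E3.75, and 85.7% at E4.0. Both E4.0 experiments lay above all earlier ones, with a difference of 2.00 against E3.75 (SE 0.68, adjusted p = 0.233) and 1.73 against E3.25 (SE 0.68, adjusted p = 0.272). Both comparisons share the E4.0 embryos. Between fresh stages the share of all tested genes without overlap was not counted. With 2 experiments a group, a lack of overlap carries little weight. The size differed between the sequencing runs, with 3.37 against E3.75 in cells of run 1 and 0.26 in cells of run 2. Experiment 2 of E4.0 had 3 cells in run 1 and 2 in run 2, and experiment 2 of E3.75 had 4 and 3. An effect of run was not tested. Without experiment 2 of E4.0 the difference against E3.75 was 1.15. Against E3.25 it was 0.39 when the log was taken of the mean TPM. The number of genes detected per cell also separated the stages, with experiment means of 7236 and 7682 at E4.0, against 6371 and 6000 at E3.75 and 6393 and 6078 at E3.25. It correlated with Tomm34 within experiments at r = 0.185, and with it as a covariate the differences were 1.71 against E3.75 and 1.45 against E3.25. The 10 primitive endoderm markers were higher at E4.0, at 3.66 to 4.06, against 1.14 to 1.96 at E3.75, and whether they bear on Tomm34 was not tested.

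Tomm7, a small TOM subunit that also acts in PINK1 signalling, was at 6.13 and 2.38 at E3.25, 7.96 and 5.84 at E3.75, and 7.61 and 5.74 at E4.0. The difference was 2.64 for E3.75 against E3.25 (SE 1.16, adjusted p = 1) and 2.42 for E4.0 against E3.25 (SE 1.16, adjusted p = 0.386), and the stages overlapped in both. Without experiment 2 of E3.25 these were 0.77 and 0.54. Timm8a1 was lowest in the middle stage, at 4.98 and 6.05 at E3.25, 4.67 and 2.68 at E3.75, and 5.84 and 4.85 at E4.0. Its differences were -1.84 for E3.75 against E3.25 (SE 0.79, adjusted p = 1) and 1.67 for E4.0 against E3.75 (SE 0.79, adjusted p = 0.513), with no overlap between E3.75 and either of the other stages. Without experiment 2 of E3.75 they were -0.84 and 0.68, and summed with Gm9797 they were -0.87 and 0.72.

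Timm8a2, the relative of Timm8a1, was at 4.08 and 2.49 at E3.25, 2.14 and 1.38 at E3.75, and 1.26 and 2.753 at E4.0. The difference was -1.53 for E3.75 against E3.25 (SE 0.73, adjusted p = 1) and -1.28 for E4.0 against E3.25 (SE 0.73, adjusted p = 0.491). Cells of run 1 alone gave the opposite sign, at 0.90 and 0.67. Timm9 was at 4.87 and 4.21 at E3.25, 3.03 and 2.80 at E3.75, and 4.92 and 3.77 at E4.0, with a difference of 1.43 for E4.0 against E3.75 (SE 0.80, adjusted p = 0.634) and no overlap between those stages. Timm9 turned to -0.42 when the log was taken of the mean TPM. Timm44, the motor tether, was at 5.97 and 6.43 at E3.25, 4.57 and 5.14 at E3.75, and 3.89 and 5.72 at E4.0.

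No member passed between fresh stages. For E3.75 against E3.25 no tested gene did either (0.0%), and 3 of 24 members (12.5%) had an unadjusted p under 0.05, against 4.59%. For E4.0 against E3.75, 1.41% of tested genes passed, and 2 members (8.33%) had an unadjusted p under 0.05, against 9.49%. For E4.0 against E3.25, 1.67% passed, and 2 members (8.33%) had an unadjusted p under 0.05, against 12.9%. The median member difference was -0.37 for E3.75 against E3.25, 0.11 for E4.0 against E3.75 and -0.36 for E4.0 against E3.25, beside medians of -0.09, 0.29 and 0.20 over all tested genes. Between E3.25 and E4.0 the members had a median of the other sign than nuclear oxidative phosphorylation genes (median 0.92, 63 of 82 positive) and mitochondrial ribosomal protein genes (median 0.68, 52 of 78 positive). The members' median changed sign when either experiment 1 of E3.25 or experiment 2 of E4.0 was left out, to 0.07 and 0.06.

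**Figure D4:**
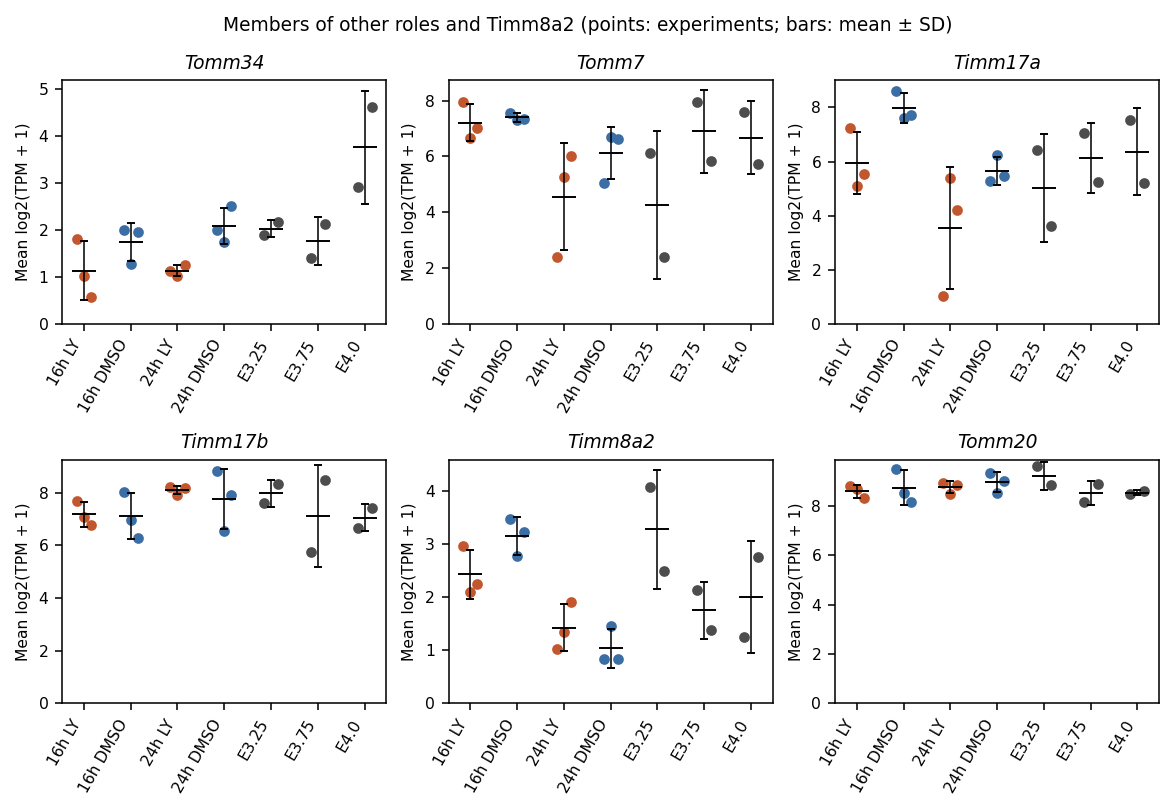
Level of Tomm34, Tomm7, Timm17a, Timm17b, Timm8a2 and Tomm20 in each group. Points are experiments (orange LY, blue DMSO, grey fresh), the bar and whiskers are the mean ± SD over 3 (culture) or 2 (fresh) experiments, and the vertical axis is mean log2(TPM + 1). Tomm34 is highest at E4.0, Timm8a2 is low in both 24-hour groups, and Tomm20 is flat beside the others.

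Culture length was compared in the vehicle alone. Timm8a2 was at 0.83, 1.46 and 0.83 in 24h DMSO, against 3.48, 2.78 and 3.23 in 16h DMSO. The groups were well apart, with a difference of -2.12 (SE 0.59, unadjusted p = 0.00181, adjusted p = 0.282), and 16 of 28 cells were at 0 at 24 hours, against 6 of 31 at 16 hours. Timm17a was at 5.26, 6.25 and 5.47 in 24h DMSO, against 8.62, 7.59 and 7.72 in 16h DMSO, again without overlap (difference -2.32, SE 0.97, adjusted p = 0.402). The number of genes detected did not overlap between these groups either, with experiment means of 5726, 6668 and 6969 in 24h DMSO, against 9995, 7156 and 7102 in 16h DMSO. With it as a covariate the differences were -1.69 for Timm8a2 and -1.05 for Timm17a. With log2(TPM + 10) Timm8a2 differed by -0.81, and with the log of the mean TPM Timm17a differed by -0.74. Mitochondrially encoded genes took up 1.55% to 9.17% of TPM in 24h DMSO and 10.8% to 14.3% in 16h DMSO, and the trophectoderm markers averaged 1.65 and 2.49. The part of these shifts was not tested beyond that covariate. Timm21, which in yeast couples TIM23 to TOM and the respiratory chain, was at 0, 1.29 and 0.54 in 24h DMSO, against 4.27, 0.78 and 1.24 in 16h DMSO, with overlap (difference -1.49, SE 0.72, adjusted p = 0.462, -0.40 without the 16h DMSO experiment of 3 cells, and 0.01 with genes detected as a covariate). Only 0.00856% of tested genes, a single gene outside the members, passed. At an unadjusted p under 0.05 there were 2 members (8.33%), against 10.9% of tested genes. How many of all tested genes lacked overlap here was not counted. All 16h dates came after all 24h dates, so culture time and date cannot be told apart.

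Each DMSO group was also set against a fresh stage of near age, and these 4 groups also served in the comparisons above. For 16h DMSO against E3.25, Tomm7 was at 7.57, 7.29 and 7.34 in 16h DMSO, against 6.13 and 2.38 at E3.25. The difference was 3.14 (SE 1.06, adjusted p = 0.232), and 1.27 without experiment 2 of E3.25. Timm17a was at 8.62, 7.59 and 7.72, against 6.43 and 3.62 at E3.25 (difference 2.95, SE 1.08, adjusted p = 0.258), and 1.55 without that experiment. Timm21 was at 4.27, 0.78 and 1.24, against 0.40 and 0.01 at E3.25 (difference 1.89, SE 0.80, adjusted p = 0.311), and 0.81 without the 16h DMSO experiment of 3 cells. With genes detected as a covariate Timm21 differed by 0.20, and every 16h DMSO experiment had more genes detected (7102 to 9995) than either E3.25 experiment (6078 and 6393). The 16h DMSO values of all 3 genes lay above both E3.25 values. The share of all tested genes that did so was not counted, and with so few experiments it carries little weight. Of all tested genes 0.0514% passed, no member among them, and 3 members (12.5%) had an unadjusted p under 0.05, against 13.7%.

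For 24h DMSO against E3.75, Timm8a1 was at 6.02, 4.96 and 5.48 in 24h DMSO, against 4.67 and 2.68 at E3.75 (difference 1.81, SE 0.72). Timm44 was at 6.85, 6.67 and 5.67, against 4.57 and 5.14 (difference 1.54, SE 0.74), and Timm23 at 9.66, 9.36 and 9.43, against 8.88 and 7.84 (difference 1.12, SE 0.62). None of these 3 genes overlapped between the groups, but the share of all tested genes without overlap was not counted here. Their adjusted p was 1, no tested gene passed (0.0%), and 2 members (8.33%) had an unadjusted p under 0.05, against 3.17%. The Timm8a1 difference was 0.81 without experiment 2 of E3.75 and 1.41 summed with Gm9797.

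The other genes of import and folding, 40 tested of a list of 42 found in the table, had no gene past limma's adjusted threshold in any of the 9 comparisons, and 0 to 7 genes with an unadjusted p under 0.05. Their share ran from 0% for E4.0 against E3.75, where it was 9.49% of all tested genes, to 17.5% for 16h DMSO against E3.25, where it was 13.7%. For LY against DMSO it was 10% at 24 hours, against 5.27% of all tested genes, and 2.5% at 16 hours, against 5.49%. At 24 hours 29 of 40 differences between LY and DMSO were negative, with a median of -0.42, and 7854 of all 11680 tested genes were negative, with a median of -0.20. The matrix protease Lonp1 (-2.06, SE 0.54, adjusted p = 0.899) and the motor co-chaperone Dnajc15 (-2.02, SE 0.81, adjusted p = 0.899) were nearest to the threshold. Mitochondrial ribosomal protein genes had a median of -0.65 (60 of 78 negative) and nuclear oxidative phosphorylation genes -0.80 (66 of 82 negative), beside the -0.27 of the members. At 16 hours 32 of 40 were negative, with a median of -0.45, beside 8922 of 11680 tested genes with a median of -0.33. They were led by the ADP/ATP carrier Slc25a5 (-1.94, SE 0.57, adjusted p = 0.726), a client of the small TIM and TIM22 route, and the protease Oma1 (-0.82, SE 0.42, adjusted p = 0.854). Between the times, Lonp1 (-2.03) and the inner membrane protein Romo1 (-3.0) had the smallest p, both with an adjusted p of 1.

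Between fresh stages the motor co-chaperone Dnajc19 (2.77) and Romo1 (2.57) led for E3.75 against E3.25, and Dnajc19 (2.68) and the outer membrane assembly protein Samm50 (2.56) for E4.0 against E3.25, with adjusted p of 1, 1, 0.301 and 0.356. Immt (1.46), a scaffold of the cristae junction, and the disulfide relay oxidoreductase Chchd4 (1.44), which small TIM proteins need in order to fold, led for E4.0 against E3.75 with adjusted p of 0.556 and 0.671. For 24h DMSO against 16h DMSO they were Oma1 (-1.5, adjusted p = 0.282) and the cristae gene Apoo (-2.46, adjusted p = 0.367). For 16h DMSO against E3.25 they were Apool (2.86, adjusted p = 0.243) and Apoo (2.63, adjusted p = 0.268), and for 24h DMSO against E3.75 Oma1 (-1.20) and the nucleotide exchange factor Grpel2 (1.00), both with an adjusted p of 1.

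From cell to cell, 11 to 24 of the 25 members were at a TPM of 1 or more, with a median of 20. This number followed the number of genes detected (Pearson's r = 0.735 over 169 cells, and 0.632 within experiments), a quantity that all genes of a library share. In 24h LY the mean was 17.4 ± 1.34 members per cell, against 19.4 ± 0.467 in 24h DMSO, and in 16h LY 20.3 ± 1.73, against 21.6 ± 1.37 in 16h DMSO (SD, n = 3 experiments each).

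Correlations between members from cell to cell were mostly low. Over 276 pairs of members the median correlation across cells, within experiments, was 0.042, and the median over pairs of all tested genes was 0.026. Timm9 and Timm10, partners in the carrier chaperone, had r = 0.308, while Timm13 and Timm8a1 had -0.04, Timm22 and Timm29 0.013, and Timm10 and Timm10b 0.017. Timm10 had higher values with members outside that hexamer, at 0.42 with Tomm5, 0.398 with Timm17a, 0.345 with Timm8b and 0.326 with Tomm7. One set of high values joined Timm17a with Tomm7 (0.61), Timm17a with Timm8b (0.515) and Timm8b with Tomm7 (0.5), genes of different complexes, and the TOM subunits Tomm5 and Tomm7 (0.478). A second set joined Tomm20 with Tomm40 (0.541), Tomm20 with Tomm22 (0.457), Timm50 with Tomm40 (0.456) and Timm50 with Tomm20 (0.423). It did not extend over TOM, where Tomm22 with Tomm40 had 0.16, Tomm40 with Tomm6 0.02 and Tomm20 with Tomm5 -0.14. Tomm40 had negative values with the first set, at -0.429 with Tomm7, -0.282 with Timm17a, -0.244 with Tomm5 and -0.236 with Timm8b. The paralogues Timm17a and Timm17b had -0.205. Genes of the first set followed the number of genes detected, with r of 0.458 for Timm8b, 0.384 for Timm17a and 0.317 for Tomm7, while Tomm20 (-0.19) and Tomm40 (-0.148) did not. Timm10 followed it too (0.411). Tomm20 and Tomm40 ran against the percentage of TPM that mitochondrially encoded genes took up, at -0.612 and -0.384. The points share library and depth, and TPM shares a fixed total, so these values describe the cells and no test was made.

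**Figure D5:**
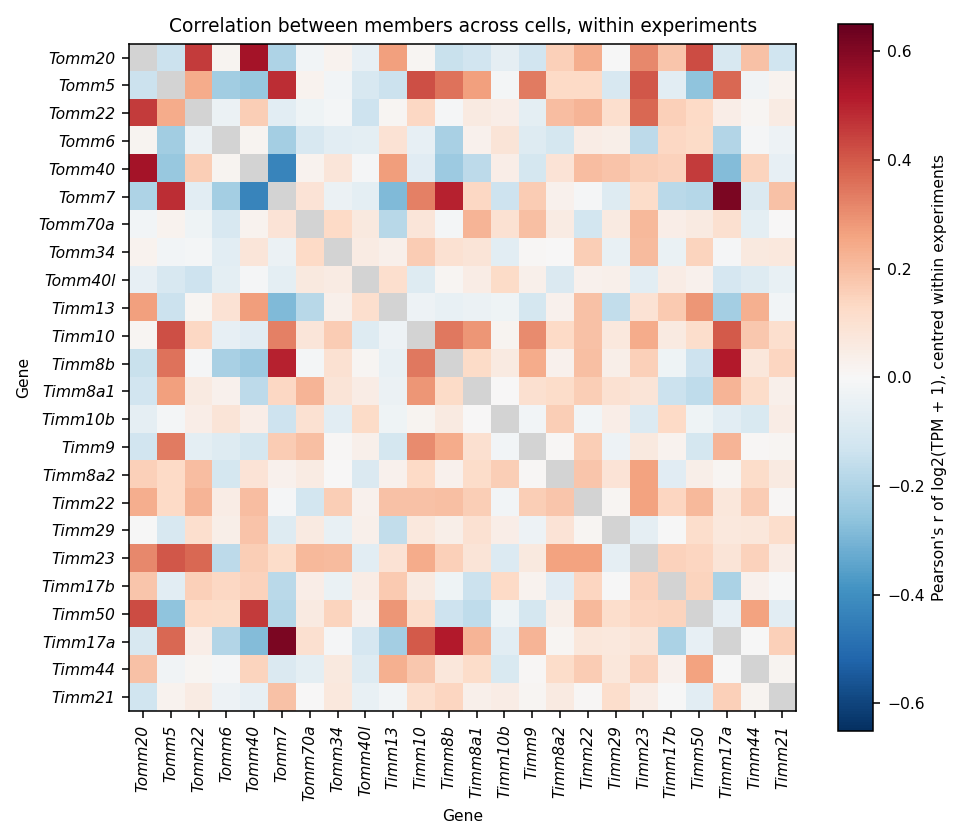
Pearson's r between each pair of the 24 tested members across 169 cells, after centring log2(TPM + 1) within experiments (red positive, blue negative, grey the gene itself). Timm17a, Timm8b, Tomm5 and Tomm7 form one set of positive values, up to 0.61, and Tomm20, Tomm40 and Timm50 another, up to 0.541.

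Promoter sequence was the one shared feature outside expression that the reference allowed to be read. RefSeq promoters of 300 bases around the start (GRCm38.p6) were found for 22 of the 25 members. The motif CCGGAAGT, a site of ETS factors, was present on either strand in 6 members (Timm10, Timm10b, Timm23, Timm29, Timm8a2 and Tomm70a; 27.3%), against 4.31% of 27025 genes. GCGCANGCG, the core of the NRF1 site, was present in Timm13, Timm8b and Tomm20 (13.6%), against 7.03%. AANATGGCG, a YY1 site, was present in Timm44 and Timm50 (9.09%), against 2.76%. No member held more than 1 of the 3 motifs. The 27025 genes were all those with a promoter, not only tested ones, while most members were among the more abundant transcripts. The shares among tested genes, or among genes of similar level, were not counted. Whether the higher shares of the members go with their expression level was not tested. Timm10 and Timm10b, whose LY values at 24 hours lay on opposite sides of DMSO, both held the ETS letters. A match describes the letters of that window and is not a binding site.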

How the data were processed

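Single inner cells were sequenced after reverse transcription from the 3′ end, amplification and Nextera XT tagmentation, per the labels' protocols. The authors deposited TPM values per gene. They used STAR 2.7.9a and RSEM 1.3.3 on build mm10, after cutadapt 2.9 and bcl2fastq 2.20.0, per the submitters' processing notes. Their annotation is not stated in the sources used here, and the depth of each cell is unknown, since TPM keeps none. The table held 170 columns, and 16 of the 186 labelled samples were not analysed here. A pair of E3.25 columns whose titles differ by a suffix (r = 0.824) was averaged as 1 cell, which left 169 cells. A like pair in experiment 1 of 24h LY (r = 0.594, against up to 0.724 with other cells of that experiment) was kept as separate cells among its 7. Treating both pairs the other way was an alternative. No cell was removed.

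Experiment means of log2(TPM + 1) were fitted for all 7 groups with limma 3.58.1 (lmFit, contrasts.fit, eBayes with trend) in R 4.3.3, for genes that reached a TPM of 1 in 25% or more of a group's cells. All tests were two-sided, with Benjamini-Hochberg adjustment over 11680 genes and a threshold of 0.05. The script was tested on simulated data. Dates pair the LY and DMSO arms by the labels. Deviations of same-date arms correlated at 0.393, 0.121 and 0.317 at 16 hours and at 0.231, 0.12 and 0.0732 at 24 hours. The members, the other gene lists and the motifs were chosen with earlier results of these data known. In each comparison the 3 members and the 2 other import genes with the smallest p are named, and further members were named after their values were seen. Copies are annotated transcripts that match at least 80% of a member's longest coding sequence at 90% identity or more (blastn), thresholds set after seeing a first search. Alternatives were other pseudocounts, filters, normalizations, runs, covariates, replicate sets and a date block.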

Additional observations from a re-analysis of the deposited data

Results flagged for a closer look

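Timm10b was picked out because its LY value was below DMSO on all 3 dates at 16 hours and above it on all 3 dates at 24 hours. The differences were -0.003, -0.30 and -0.30 at 16 hours and 2.46, 1.97 and 1.45 at 24 hours, so that date 1 at 16 hours was at DMSO's own level. The difference between the times was 2.16 (SE 0.92) and did not pass limma's adjusted test (adjusted p = 1, unadjusted p = 0.0288). Timm10b did not differ in sign from this value in any of the 28 alternatives, which gave 0.98 to 3.65. They reuse the data from which Timm10b was picked for its signs, so the kept sign is no added support. Culture time and collection date cannot be told apart.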

How the results depend on the processing

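Across 34 alternatives, most of which bear on 1 or a few comparisons, no member passed the adjusted threshold except Timm44 for E4.0 against E3.25 in cells of run 2 alone (1 member called, -3.16, adjusted p = 0.0361, and 0.0361 to 1 over its 19 alternatives). In that setting 384 of 11680 tested genes passed, and experiment 2 of E4.0 held 2 cells. With date as a replicate block, the paired fit had 4 residual degrees of freedom. It called 0 members in the 3 LY comparisons, and 0 of 11680 tested genes in each. Its medians were -0.383 at 16 hours, -0.271 at 24 hours and -0.0942 for the difference. Timm10 at 24 hours had an adjusted p of 0.204 (0.17 to 1 over its 22 alternatives). The paired fit changed no call. Summing members with their copies, chosen after seeing the data, changed no call either.

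Median member differences moved by more than the 0.327 SD between experiments in 19 cases and by less in 171. With cells of run 1 alone they were -0.607 for 24h LY, 0.31 for E4.0 against E3.25, 0.256 for 24h DMSO against 16h DMSO and 0.7 for 16h DMSO against E3.25. With cells of run 2 alone they were -0.331 for E4.0 against E3.75 and -0.707 for E4.0 against E3.25. Without cells of few genes 24h LY gave -0.636. With log2(mean TPM + 1) they were -0.243 for E4.0 against E3.75 and -0.5 for 16h DMSO against E3.25. With quantile normalization they were 0.216 for 24h DMSO against 16h DMSO and -0.521 for 16h DMSO against E3.25. With genes detected as a covariate they were -0.236 for E4.0 against E3.75 and 0.241 for 24h DMSO against 16h DMSO. Leaving out 1 experiment gave -0.457 to 0.0541 for the difference of LY effects, -0.754 to 0.0366 for E3.75 against E3.25 and -0.551 to 0.074 for E4.0 against E3.25. Of 36 differences of single members given above, 9 changed sign under an alternative. In cells of run 1 alone, Timm8a2 gave 0.904 for E3.75 and 0.67 for E4.0 against E3.25, and for 24h LY Timm8a2 gave -0.868, Timm8b -0.499 and Tomm40 -0.14. In cells of run 2 alone, Timm17b gave -0.0754 for 24h LY and Tomm6 -0.00179 for 16h LY. Timm8b for 24h LY also gave -0.172 with log2(TPM + 0.1), -0.603 without cells of few genes, and -1.35 to 1.32 leaving out 1 experiment, and Timm17b -0.263 to 0.873. Timm9 for E4.0 against E3.75 gave -0.421 with log2(mean TPM + 1), and Timm21 for 24h DMSO against 16h DMSO 0.008 with genes detected as a covariate. For these values the cause was not tested. Every group held cells of both runs, but a run alone left few cells in some experiments. In run 1 experiment 3 of 24h LY and experiment 1 of 16h DMSO held 1 cell each, and experiment 3 of 24h DMSO held 2. In run 2 experiment 1 of 16h DMSO and experiment 3 of 16h LY held 2 cells each.

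With 2 or 3 experiments a group and unknown depth, a value of 0 does not separate absence from low depth. The standard errors of these 36 differences, 0.51 to 1.35, limited the size of change that passed the test.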
